A study of Mus musculus with 8 samples.

Results

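Resting luminal cells were the wells of PyMT mammary tumor organoids that carried more luminal than basal keratin transcripts together with few cell cycle transcripts. They numbered 113 of 1100 single cells, namely 15 of the 369 cells of library GR17, 41 of the 369 of GR18 and 57 of the 362 of GR19. The first criterion was R, the log2 ratio of the summed UMIs (unique molecular identifiers, each standing for 1 captured transcript) of Krt8 and Krt18 to those of Krt5 and Krt14, with 1 added to each sum, and a cell above the 75th percentile of R was called luminal. The second was C, the UMIs of 12 genes of S phase, G2 and mitosis per 10000 UMIs of the cell (Mcm3, Mcm5, Mcm6, Pcna, Rrm2, Tyms, Top2a, Cdk1, Ccnb1, Ube2c, Cenpf and Birc5), and a cell up to the 33.3rd percentile of C was called resting. Resting here means a low cell cycle transcript content at the time of sorting. Whether these cells had left the cycle was not measured.

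The organoids came from tumors of MMTV-PyMT; MMTV-Cre; Ecadherin-mCFP mice, in which the mammary tumor virus promoter drives the polyomavirus middle T oncogene and Cre in mammary epithelium. SOX4, a transcription factor of the SRY-related HMG box family, was disrupted with CRISPR/Cas9. GR17 was the control line and GR18 and GR19 were SOX4 knockout (SOX4KO) lines, each line grown from 1 clone, and bulk RNA-sequencing covered the control lines WT1 and WT3 and the SOX4KO lines H7, M4 and H4. Control and SOX4KO organoids alike were harvested 4 days after splitting to single cells, in medium with FGF2. The labels do not link single-cell lines with bulk lines, and the single cells have only 1 control library, so genotypes are compared in them mainly by description.

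The mammary epithelium has an inner luminal layer, which expresses keratins 8 and 18 and, in its alveolar branch, makes milk proteins, and an outer basal layer of contractile cells that expresses keratins 5 and 14. Luminal progenitors carry Kit, Elf5 and Cd14. Cells that pause in the cycle hold low levels of replication and mitosis transcripts, because E2F factors are then held by retinoblastoma family proteins, which CDK inhibitors keep active.

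Library totals were alike, at 7714119, 8009481 and 8296953 UMIs for GR17, GR18 and GR19. Median UMIs per resting luminal cell were 18039, 21074 and 21192, between the medians of cycling luminal cells (24152, 34451 and 27707) and of resting cells that were not luminal (13686, 15774 and 16694). The 15 control cells held 260946 UMIs in all, so 3 counts there equal 11.5 CPM (UMIs scaled to a common library total), and they set the precision of every comparison with the control. Mitochondrial transcripts made up a median of 12.9%, 15.5% and 16% of UMIs in resting luminal cells against 11.2%, 11.9% and 15.1% in all other cells. Results with mitochondrial genes left out of the counts are given at the end. Whether cells rich in mitochondrial transcripts carry any result was not tested. All 3 libraries used the same 384 well barcodes by plate design. Bulk libraries held 3050323 to 4678497 reads on genes.

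Csn1s1 and Wfdc18, a casein and a small secreted protein of the milk program, were both higher in resting luminal cells, and Csn1s1 differed most with genotype among milk genes. Their promoters (250 bases before to 50 after the start, RefSeq, GRCm38.p6, plus strand) are shown because STAT5, the factor downstream of prolactin, binds the motif TTCNNNGAA. Capitals mark matches to that motif, which is its own reverse complement. The Csn1s1 promoter lies at chr5:87665958-87666257 and the Wfdc18 promoter at chr11:83708754-83709053.
Csn1s1: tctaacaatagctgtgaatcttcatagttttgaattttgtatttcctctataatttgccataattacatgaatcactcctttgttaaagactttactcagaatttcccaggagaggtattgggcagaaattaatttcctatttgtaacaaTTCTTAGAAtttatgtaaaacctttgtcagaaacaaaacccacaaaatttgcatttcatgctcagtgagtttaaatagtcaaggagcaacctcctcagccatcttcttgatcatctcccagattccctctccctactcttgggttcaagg
Wfdc18: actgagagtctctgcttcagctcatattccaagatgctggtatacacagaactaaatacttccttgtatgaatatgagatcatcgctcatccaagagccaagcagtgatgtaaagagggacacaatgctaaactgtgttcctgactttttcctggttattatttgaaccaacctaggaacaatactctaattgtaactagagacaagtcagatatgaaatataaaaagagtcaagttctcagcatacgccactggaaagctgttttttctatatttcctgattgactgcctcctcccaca
The Csn1s1 window held 1 match, whose first base lay at -100 from the start, and the Wfdc18 window held none. Of 18 milk genes tested below, 11 were in the promoter tables and 2 held the motif (Csn1s1 and, in the second of its 2 promoters, Mgst1), beside 9.55% of 27025 genes with at least 1 such promoter. With 2 matches nothing is read from this share. Csn3, the kappa-casein gene, was not among them. A match is a description of these letters and not a binding site.

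The rule placed these cells at one corner of the plot of R against C. Their median R was 2.32 and their median C was 4.08, against -1.17 and 20.1 over all cells. The lowest R inside was 0.874 and the highest R of a resting cell outside was 0.862, around a boundary of 0.865. The lowest C of a luminal cell outside was 12.513, just over a boundary of 12.504. Within the group 24 cells lay within 0.5 of the R boundary and 11 within 2 of the C boundary, so the group is a range of 2 measures and not a separate cluster.

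**Figure D1:**
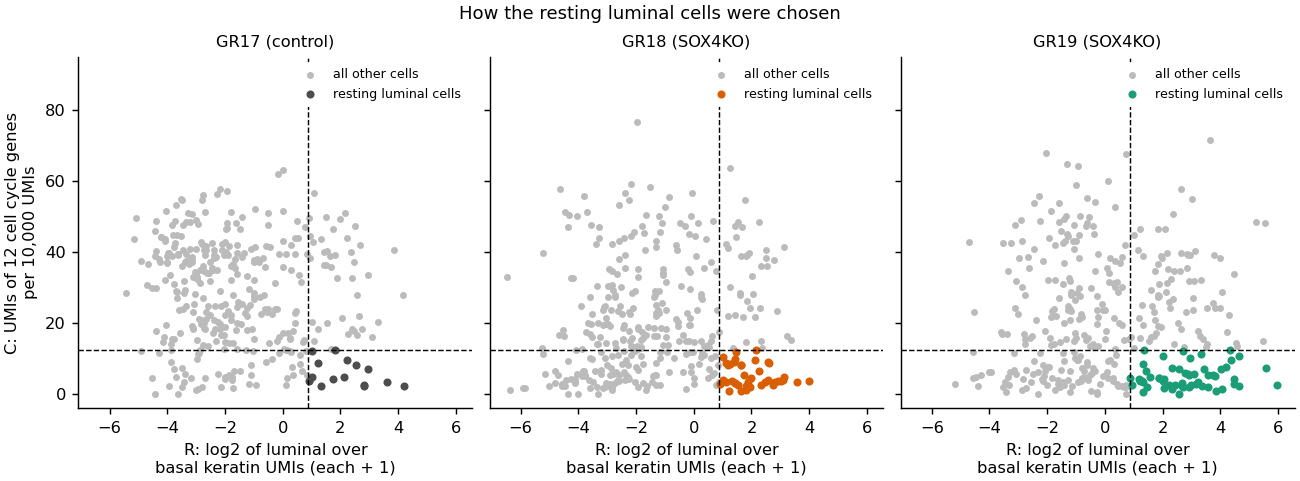
R (log2 ratio of luminal to basal keratin UMIs, 1 added to each sum, horizontal) against C (UMIs of 12 cell cycle genes per 10,000 UMIs, vertical) for each cell, 1 panel per library, with dashed lines at the 2 boundaries. Resting luminal cells (colored) fill the lower right corner and number 15 in GR17, 41 in GR18 and 57 in GR19, with no gap between them and the other cells.

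Resting luminal cells took a larger share of both SOX4KO libraries than of the control. They made up 4.07% of GR17 (exact binomial 95% interval 2.29 to 6.62), 11.1% of GR18 (8.09 to 14.8) and 15.7% of GR19 (12.1 to 19.9), and the control interval did not overlap the others. These intervals cover counting error only and say nothing about the spread between clones. By single criterion, 58 cells of GR17, 80 of GR18 and 137 of GR19 were luminal, and 69, 153 and 145 were resting. The resting share of those luminal cells was 25.9% in the control (interval 15.3 to 39.0), 51.25% in GR18 (interval 39.8 to 62.6) and 41.6% in GR19 (interval 33.3 to 50.3). The GR19 interval overlapped that of the control, and the part of each criterion in the difference between libraries was not tested. The order of the shares of resting luminal cells depended on boundaries set over all libraries together. With both boundaries set within each library, the shares were 12.47% (interval 9.27 to 16.3), 11.1% (8.09 to 14.8) and 9.39% (6.59 to 12.9). The point values then ran in the opposite order, but their intervals overlapped. That setting gives every library about the same share of luminal cells and of resting cells. It therefore cannot show whether the lines differ in either.

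**Figure D2:**
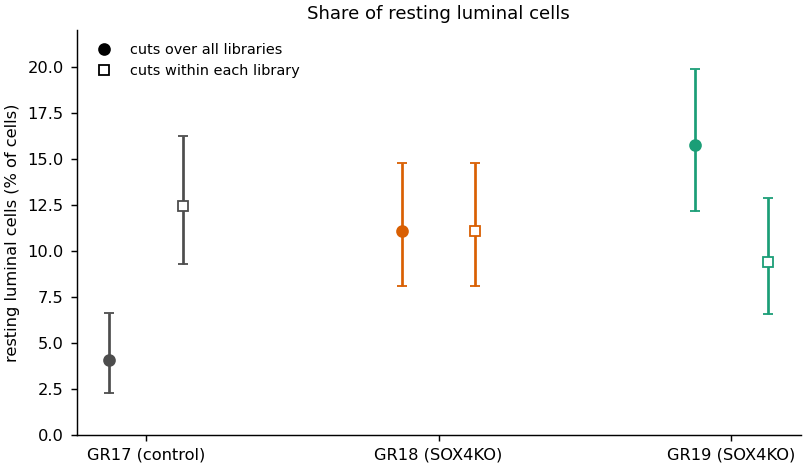
Share of cells that were resting luminal (percent, vertical) in each library, with exact binomial 95% intervals as bars. With cuts over all libraries (filled circles) the control lies at 4.07%, below both SOX4KO libraries. With cuts within each library (open squares) it lies at 12.47%, above them but with overlapping intervals.

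The label rests on 5 markers, of which Krt8 and Krt18 belong to the rule and are given as a description. Krt8 stood at 1464, 1083 and 1375 CPM in GR17, GR18 and GR19 against 550, 666 and 796 in all other cells, and Krt18 at 832, 546 and 595 against 262, 191 and 261. Krt5 stood at 165, 86.9 and 26.9 CPM against 1927, 1625 and 608, so some basal keratin message remained. The cell cycle genes of the rule were low by construction, with Top2a, the mitotic topoisomerase, at 34.5, 26.6 and 11.9 CPM against 355, 237 and 254.

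The other 3 markers were outside the rule and all were higher. Csn3 stood at 713, 1208 and 4213 CPM in resting luminal cells and at 79.8, 296 and 1312 in all other cells, and in every library the resting luminal value was above the other. The level in GR19 cells outside the group was nevertheless higher than in the control's resting luminal cells. Ceacam1, a cell adhesion molecule of luminal surfaces, stood at 84.3, 76.0 and 90.9 CPM against 7.92, 16.6 and 23.8, and Wfdc18 at 134, 296 and 83.0 against 26.7, 46.7 and 29.2. After thinning each cell to 5000 UMIs, Csn3 was detected in 57.1%, 75.6% and 94.7% of resting luminal cells and in 9.80%, 34.5% and 66.3% of resting cells that were not luminal. Before thinning, the latter shares were 14.8%, 54.5% and 90.9% at lower median depths, so in GR19 nearly all cells of both classes held a Csn3 UMI and the levels differed. Luminal cells that were not resting shared this trait, with thinned shares of 41.9%, 84.2% and 97.5% and levels of 427, 945 and 3234 CPM. Ceacam1 after thinning was detected in 57.1%, 26.8% and 26.3% against 3.92%, 6.36% and 6.98%. In luminal cells that were not resting its shares were 18.6%, 21.1% and 20%. Wfdc18 after thinning was detected in 28.6%, 36.6% and 26.3% of resting luminal cells. Its shares were 25.6%, 34.2% and 15% in luminal cells that were not resting. They were 13.7%, 23.6% and 12.8% in resting cells that were not luminal.

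Single cells varied widely within the group. Csn3 per 10000 UMIs ran from 0 through a median of 1.0 to 41.6 in GR17, from 0 through 8.31 to 60.2 in GR18 and from 0 through 32.1 to 169 in GR19. In GR17 a single cell held 94 of the 186 Csn3 UMIs. The summed milk list was more even, with medians of 220, 288 and 262 per 10000 UMIs and a range of 82.5 to 1029 over the 3 libraries. The basal list had medians of 17.4, 33.1 and 34.7 and reached 224 in 1 cell of GR19.

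Resting luminal cells were next compared with all 987 other cells, which asks which genes outside the rule go with this state on average over the lines. UMIs were summed per library and class, and the sums were fitted with edgeR's quasi-likelihood test with the library as a block, calling genes at a Benjamini-Hochberg adjusted p under 0.05. Of 10414 genes tested, 1169 were higher (11.2%) and 1401 were lower (13.5%). Because the cells were chosen on 16 genes in the same wells, genes that accompany those 16 had to differ. A call here says only that the mean difference was large beside its estimated spread over the 3 libraries. It does not require the same direction in each library. The choice of fit moved these totals, from 2570 calls to 1296 with DESeq2, 913 without the library block, 1671 without GR18 and 1527 without GR19.

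The 10 highest-ranked rises were led by S100a8, Creb3l1, Atp1b1 and Krt19 and took in 3 of the label's markers. S100a8, a calcium-binding protein of the calprotectin complex, stood at 309, 474 and 91.3 normalized CPM in GR17, GR18 and GR19 against 6.47, 66.8 and 25.2 in the other cells (log2 difference 3.03, SE 0.242, edgeR adjusted p = 6.87e-14). Creb3l1, a membrane-bound transcription factor of the secretory pathway, stood at 64.9, 62.1 and 37.3 against 6.6, 11.8 and 6.31 (2.65, SE 0.253). Atp1b1, the beta subunit of the sodium pump, stood at 87.8, 91.3 and 57.3 against 17.0, 14.0 and 12.3 (2.44, SE 0.200). The lowest resting luminal library exceeded the highest other value for all of these genes. Krt19, a luminal keratin outside the rule, stood at 172, 83.7 and 78.0 against 10.8, 17.1 and 24.7 (2.44, SE 0.231), and Cited1, a transcriptional coregulator, at 84.0, 109 and 29.0 against 11.9, 17.9 and 8.97 (2.38, SE 0.223). Tspan1, a tetraspanin, rose by 2.13 (SE 0.152) and Gabrp, a GABA receptor subunit, by 2.07 (SE 0.199), and the markers Ceacam1, Wfdc18 and Csn3 by 2.38, 2.30 and 2.26. S100a8 and Krt19 differed more in the control than in either SOX4KO library, as the plot of the leading genes shows.

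**Figure D3:**
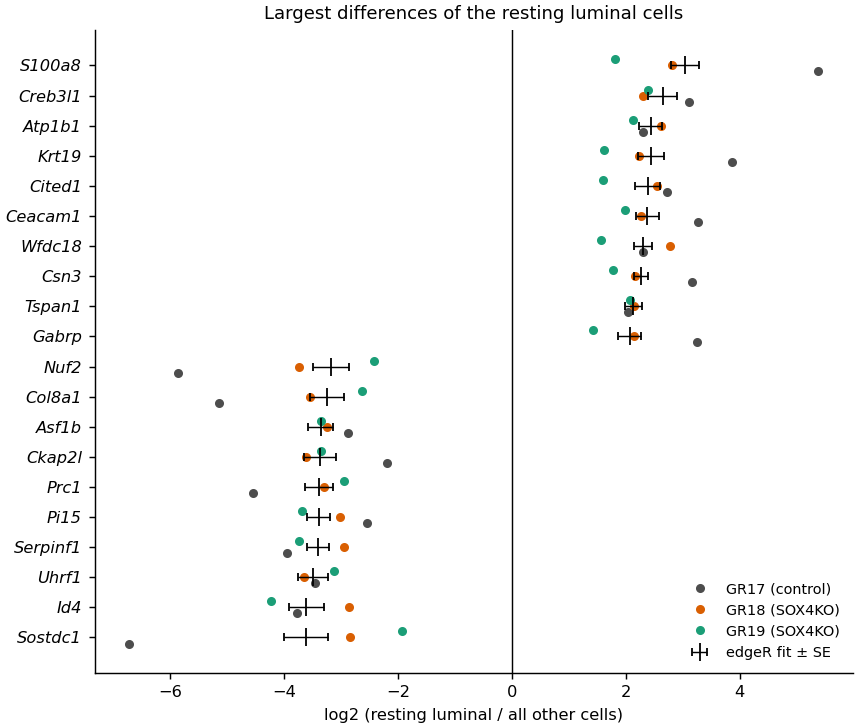
Log2 difference between resting luminal and all other cells for the 10 highest-ranked rises and 10 falls, with 1 point per library (gray GR17, orange GR18, green GR19) and the edgeR estimate ± SE in black. All points of a gene lie on one side of 0, and the fitted values run from -3.63 for Sostdc1 to 3.03 for S100a8.

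The 10 highest-ranked falls were led by Sostdc1, Id4, Uhrf1 and Serpinf1. Sostdc1, a secreted BMP and Wnt antagonist, stood at 0, 8.88 and 0 normalized CPM against 105, 70.0 and 2.80 (-3.63, SE 0.385), so GR19 had little of it in any class. Id4, an inhibitor of DNA binding of basal mammary cells, stood at 7.64, 10.1 and 0.83 against 117, 80.4 and 33.5 (-3.61, SE 0.302). Serpinf1, the secreted pigment epithelium-derived factor, stood at 3.82, 30.4 and 12.4 against 73.4, 241 and 180 (-3.41, SE 0.189). These 3 genes were low in resting luminal cells of every library. Pi15, a secreted peptidase inhibitor, fell by 3.40 (SE 0.202) and Col8a1, a collagen chain, by 3.25 (SE 0.295). Uhrf1 of DNA methylation maintenance, Asf1b of chromatin assembly and Prc1, Ckap2l and Nuf2 of the mitotic spindle made up the rest, with log2 differences of -3.49 to -3.18, and they accompany the cell cycle genes by which the cells were chosen.

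Of 24 milk and secretory genes 18 had enough UMIs to be tested, and all 18 were called higher, with a median log2 difference of 1.32, beside 0.00 over all genes. The caseins Csn2 and Csn1s2a, the whey proteins Wap and Lalba, and Glycam1 had no UMI in resting luminal cells of any library, and Btn1a1, butyrophilin, was too low to be tested. A gene high only in resting luminal cells passes the filter more readily than one low in them, so the count describes the tested members only. Lcn2, an iron-siderophore-binding protein, was the most abundant of those described, at 8991, 13275 and 12391 CPM against 2520, 4934 and 5193 (1.5, SE 0.0876). Trf, the iron carrier transferrin, stood at 5448, 7632 and 3587 against 2501, 3080 and 2332 (1.02, SE 0.0910). Xbp1, the transcription factor of the unfolded protein response, stood at 958, 1212 and 806 against 327, 447 and 384 (1.34, SE 0.0910). For each of these genes the 3 resting luminal values lay above the other values of their own library. Csn1s1, the alpha-S1 casein, stood at 107, 2129 and 1169 against 47.2, 509 and 624 (1.45, SE 0.129), and its resting luminal level in the control was below both classes of the SOX4KO lines. Hp, haptoglobin, rose by 1.99, Ltf, lactotransferrin, by 1.73, Mfge8, the milk fat globule protein, by 1.15, Spp1, osteopontin, by 1.13 and Plin2, the lipid droplet coat, by 0.62.

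Luminal epithelial genes were mostly higher. Of 17 tested luminal epithelial genes 13 were higher and 1 lower, with a median of 0.77, and Krt7, a simple epithelial keratin, was the one that fell (416, 188 and 290 CPM against 515, 334 and 429, -0.58, SE 0.10). Luminal progenitor genes were higher in 7 of 9 tested (median 1.5), including Kit, the stem cell factor receptor, by 3.01 (SE 0.43), the alveolar transcription factor Elf5 by 1.5 (SE 0.178) and the lipopolysaccharide co-receptor Cd14 by 1.76 (SE 0.0968). The progenitor list held 14 genes, of which Aldh1a3, Cyp24a1 and Rspo1 had no UMI in resting luminal cells of any library. Elf5 stood at 38.2, 26.6 and 168 CPM against 9.37, 11 and 59.4, so GR19 was highest in both classes. Hormone-sensing genes were higher in 4 of 6 tested and lower in 1, with the pioneer factor Foxa1 up by 0.97, the prolactin receptor Prlr up by 1.02 and Wnt4, a progesterone-induced Wnt ligand, down by 1.98. The hormone-sensing list held 15 genes, and its steroid receptors were absent or nearly so. Pgr had no UMI in resting luminal cells of any library and Esr1 none in those of GR17 and GR18. Tight junction and polarity genes were higher in 12 of 18 tested and lower in none, with a median of 1.22, among them the claudins Cldn3 (1.84) and Cldn7 (1.85), the scaffold Tjp3 (1.75) and Marveld3 (1.5).

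Basal genes were lower in 13 of 22 tested and higher in 1, with a median of -1.0. Trp63, the master factor of basal epithelium, stood at 0, 12.7 and 17.4 CPM against 52.4, 83.4 and 72.6 (-2.46, SE 0.242). Col17a1, a hemidesmosome collagen, stood at 7.64, 12.7 and 6.64 against 68.8, 83.4 and 58.7 (-2.95, SE 0.251), and Sparc, a matrix protein, at 84.0, 232 and 64.7 against 600, 1199 and 682 (-2.81, SE 0.128). All 3 were lower in each library. Igfbp5, an insulin-like growth factor binding protein secreted at involution, was the exception, at 1508, 2464 and 2912 against 473, 1671 and 1699 (0.96, SE 0.109). Of 14 mesenchymal genes 3 were higher and 4 lower (median -0.28). Snai2 fell by 2.85 (SE 0.221) and Cdh2, N-cadherin, by 1.17 (SE 0.213), while Mmp3, stromelysin, was higher by 2.22 with 72.5 CPM in GR17 and 2.54 and 6.64 in GR18 and GR19, and 15 of its 19 GR17 UMIs came from 1 cell.

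Markers of cells outside the epithelium were at or near 0. Of 12 immune markers 5 had a row in the tables, and in resting luminal cells they summed to 3.83, 2.41 and 2.37 CPM with Ptprc, the pan-leukocyte CD45, at 0. Of 7 endothelial markers 3 had a row and summed to 3.83, 4.83 and 3.95 CPM, of 8 fibroblast markers 3 had a row and summed to 15.3, 13.3 and 11.1 CPM, with the collagen Col3a1 at 0. Of 6 erythroid markers 1 had a row, at 0, and no adipocyte marker had one. Neither of the 2 fibroblast markers tested nor the 1 endothelial marker tested was called. The pericyte list rested on Notch3 alone, a receptor that luminal cells also use, which was higher by 1.54 (42.0, 85.0 and 51.4 CPM against 18.1, 24.0 and 19.9).

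Cell cycle genes outside the rule were low, as the choice of cells dictates. Of 38 S phase genes 37 were lower (median -2.18) and of 49 G2 and M phase genes 47 were lower (median -2.04), with Mki67, the proliferation antigen, at 34.4, 43.1 and 91.3 CPM against 235, 231 and 295. Genes of CDK inhibition and cycle exit went both ways, with 9 of 24 higher and 9 lower (median 0.16). The antiproliferative BTG family members Btg2 (374, 474 and 500 CPM against 114, 136 and 122, log2 difference 1.87, SE 0.0966), Btg1 (1.12) and Tob1 (1.14) rose together with Rb1 (1.13), the CDK inhibitors Cdkn1a (0.74) and Cdkn2b (0.96) and the cyclins Ccng1 (0.64) and Ccng2 (0.74). Ccnd1, the G1 cyclin D1, was also higher, at 1680, 1013 and 1256 CPM against 922, 727 and 808 (0.65, SE 0.0854), whereas Ccnd2 fell by 2.24 and Ccnd3 by 0.91. The CDK4 inhibitors Cdkn2c (-0.87) and Cdkn2d (-1.64) were lower, as were E2f1 (-1.41) and the pocket protein Rbl1 (-2.38). Cdkn1b, p27, was not called at -0.14 (SE 0.18).

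Immediate early genes were higher in 17 of 21 tested and lower in 1, with a median of 0.79, among them the AP-1 subunits Fos (0.77, SE 0.09) and Jund (1.25, SE 0.0968), Klf6 (1.07) and Atf3 (1.80). Heat shock genes were higher in 0 of 11 tested and lower in 2 (median -0.07). Ribosome biogenesis genes were lower in 15 of 24 (median -0.63), with nucleolin, Ncl, at 622, 467 and 527 CPM against 987, 721 and 812, while 3 of 75 ribosomal protein genes were higher and 1 was lower (median 0.03). Lineage transcription factors were higher in 17 of 38 tested and lower in 8 (median 0.23), and p53 targets were higher in 8 of 17 and lower in 2 (median 0.48). Hypoxia and glycolysis genes were higher in 5 of 22 and lower in 3 (median 0.03), and interferon and antigen presentation genes were higher in 5 of 20 and lower in 1 (median 0.18, with -0.26 in GR17, 0.26 in GR18 and 0.31 in GR19), shares nearer to the 11.2% of all genes. Sox4 transcript itself stood at 149, 112 and 126 CPM in resting luminal cells and at 117, 79.1 and 108 in all others, 0.44 higher in the fit (SE 0.12, edgeR adjusted p = 0.0059). It was kept in the SOX4KO lines and does not check the edit, since an indel need not remove the transcript.

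**Figure D4:**
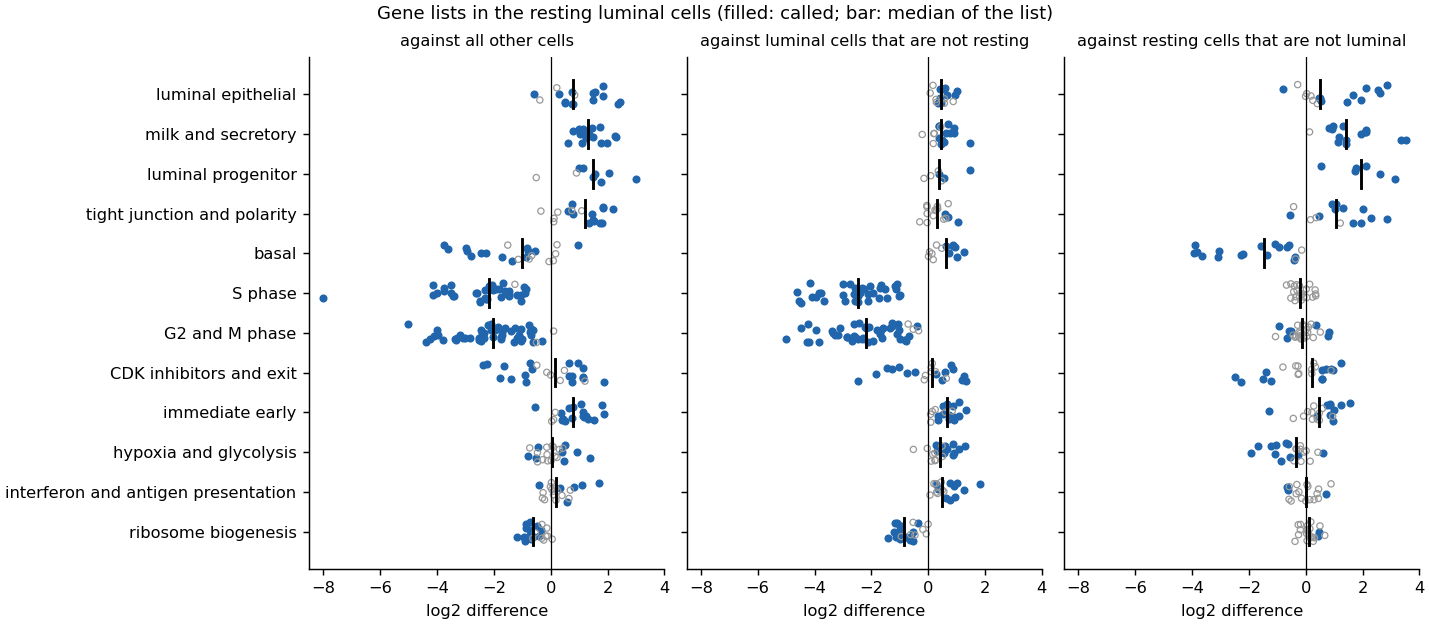
Log2 differences of the genes of 12 lists (rows) in resting luminal cells against all other cells, against luminal cells that were not resting and against resting cells that were not luminal, 1 panel each. Points are genes, filled when called by edgeR, and bars mark medians, which for milk and secretory genes lie at 1.32, 0.46 and 1.42 and for S phase genes at -2.18, -2.46 and -0.19.

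The criteria were then separated. Against the 162 luminal cells that were not resting, 8453 genes were tested, of which 1009 were higher (11.9%) and 1025 lower (12.1%), and the same reservation about the choice of cells holds. In place of these 2034 genes DESeq2 called 670, with 248 higher and 422 lower, the fit without the library block 636, the fit without GR18 1213, that without GR19 812 and boundaries set within each library 1214. Milk genes were still higher in 12 of 17 tested and lower in none, but with a smaller median of 0.46 beside 0.04 over all genes. Immediate early genes were higher in 15 of 21 (median 0.67), interferon genes in 11 of 19 (median 0.50), hypoxia genes in 10 of 20 (median 0.40), lineage transcription factors in 14 of 33 with 1 lower (median 0.50) and luminal epithelial genes in 10 of 17 (median 0.46). By library, the hypoxia median was -0.10 in the control, 0.32 in GR18 and 0.58 in GR19, and the interferon median was 0.07, 0.33 and 0.66, so the control showed little or none of either difference. Basal genes were higher in 7 of 13 and lower in none (median 0.63), with Igfbp5 up by 1.25 (SE 0.10), Sparc by 1.01 and Cav1, caveolin 1, by 0.95. S phase genes were lower in 36 of 36 and G2 and M phase genes in 45 of 48, ribosome biogenesis genes in 17 of 24 and heat shock genes in 4 of 11 with 2 higher. CDK inhibitor and exit genes were called in both directions, with 8 of 22 higher and 7 lower. Calls upward came to 3 of 7 luminal progenitor, 3 of 16 tight junction, 0 of 3 hormone-sensing, 2 of 11 mesenchymal and 4 of 15 p53 target genes, and 1 p53 target was lower.

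The 5 genes ranked highest against cycling luminal cells were Ypel3, Calcoco1, Ptgs2, Ly6d and Pdcd4. Ypel3, a small growth-suppressive protein, stood at 39.0, 70.2 and 59.2 CPM in GR17, GR18 and GR19 against 7.29, 11.3 and 9.11 (2.62, SE 0.256). Calcoco1, an autophagy receptor, stood at 46.8, 58.7 and 71.7 against 10, 14.5 and 10.8 (2.39, SE 0.248), and Pdcd4, an inhibitor of translation initiation, at 46.8, 57.4 and 60.9 against 30.1, 11.3 and 19.5 (1.6, SE 0.247). The 2 groups of values did not overlap for any of these genes. Ptgs2, the prostaglandin synthase COX-2, rose by 1.98 (SE 0.253) and Ly6d, a lineage-associated surface protein, by 1.62 (SE 0.196), with Ly6d at 289, 52.3 and 108 CPM against 138, 18.5 and 21.3, so its groups overlapped across libraries. The leading falls were Mybl2, Ncapg2, Aurkb, Fam111a and Clspn, genes of replication and mitosis, at -5.60 to -3.94.

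Against the 254 resting cells that were not luminal, 8291 genes were tested, of which 538 were higher (6.49%) and 594 lower (7.16%). DESeq2 called 455 genes, the fit without the library block 325 and the fit without GR19 556, in place of 1132. Csn3 stood at 719, 1267 and 4413 CPM against 13.3, 204 and 398 (3.35, SE 0.198), and Pglyrp1, a peptidoglycan recognition protein, at 89.0, 91.1 and 145 against 6.65, 15.2 and 9.92 (3.24, SE 0.239). S100a8 rose by 4.57 (SE 0.245) and Cited1 by 3.80 (SE 0.341), with no UMI of either in the control's resting cells that were not luminal. A row named Il8, whose mouse gene could not be told from the name, stood at 232, 96.2 and 0.83 against 23.9, 6.82 and 0.66 (3.45, SE 0.288), a difference carried by GR17 and GR18. The 5 leading falls were Sostdc1 (-4.70), Igfbp3 (-4.22), Id4 (-3.93), Sparc (85.1, 232 and 64.6 CPM against 1148, 2364 and 1597, -3.88, SE 0.159) and Trim29 (-3.79).

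Milk genes were higher in 14 of 15 tested in that comparison (median 1.42), luminal progenitor genes in 6 of 6 (median 1.95), luminal epithelial genes in 10 of 17 with 1 lower, tight junction genes in 10 of 15 with 1 lower and hormone-sensing genes in 3 of 4 with 1 lower. These lists held 24 milk, 14 luminal progenitor and 15 hormone-sensing genes. Members with too few UMIs were not tested, and genes high only in resting luminal cells pass that filter more readily. The counts, here and against cycling luminal cells, therefore describe tested members only. Basal genes were lower in 16 of 18 (median -1.48) and mesenchymal genes in 6 of 10 (median -1.0). Hypoxia and glycolysis genes were lower in 10 of 21 and higher in 1 (median -0.34), with Vegfa, the angiogenic growth factor, down by 1.94 (SE 0.17) and Ndrg1, a hypoxia-induced gene, down by 1.07 (SE 0.22). Against cycling luminal cells, Ndrg1 was instead higher by 1.29 (SE 0.26). Of 23 S phase genes edgeR called 0, and 2 had an unadjusted p under 0.05, while 3 of 29 G2 and M phase genes were higher and 4 lower. CDK inhibitor and exit genes were higher in 7 of 22 and lower in 5, p53 targets higher in 5 of 14 and lower in 3, immediate early genes higher in 9 of 21 and lower in 1, interferon genes higher in 1 of 19 and lower in 2, ribosome biogenesis genes higher in 2 of 23, heat shock genes higher in 2 of 11 and lower in 1 and lineage transcription factors higher in 12 of 35 and lower in 7.

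The design also asks how SOX4KO resting luminal cells differ from control ones. With 1 control library of 15 such cells, genes were described mainly by a fold difference over 2 in the same direction in both SOX4KO libraries, on the log2(CPM + 1) scale. GR18 and GR19 are set against the same control sum, so the 2 differences of a gene are not independent. Of 6015 genes with a mean of 20 CPM or more over the libraries, 316 were higher (5.25%) and 158 lower (2.63%). Exact 95% Poisson intervals, which cover counting error only, did not overlap in either library for 93 of the 316 and 75 of the 158. Such intervals were not counted over all 6015 genes, so these 2 counts have no background and do not check the fold differences. In all other cells, under the same filter, 108 of 6315 genes were higher and 21 lower. The larger counts in resting luminal cells go with the smaller control sum, and the part of depth in them was not tested. An edgeR quasi-likelihood test of the 2 SOX4KO sums against the 1 control sum, added after these values were seen, called 66 of 8231 genes higher (0.802%) and 34 lower (0.413%) at an adjusted p under 0.05, and DESeq2 called 10. The test has 1 residual degree of freedom and takes the lone control library to vary like the SOX4KO libraries, and Col2a1 and Postn, whose control UMIs all came from 1 cell (below), were among those called.

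The highest-ranked differences upward had no UMI in the control, so folds are lower bounds against 3 counts in the control library. Tfap2b, an AP-2 transcription factor, stood at 72.4 CPM in GR18 and 61.6 in GR19, at least 6.30-fold and 5.36-fold higher, and it was carried by 26 of 41 and 30 of 57 cells. Tfap2b was also at 0 in the control's other cells and at 67.3 and 68.4 CPM in those of GR18 and GR19. In bulk it was at 0 in both control lines and at 35.3 ± 1.35 CPM (SD, n = 3) in SOX4KO lines, with edgeR adjusted p = 0.0012. Prtn3, a neutrophil-type serine protease, was at 2.62-fold and 7.01-fold that floor, with 30.2 CPM in GR18 (19.5 to 44.5) and 80.6 in GR19 (65.7 to 97.9). Bst2, Gbp2, Oas2, Tap1 and Xaf1, all interferon-inducible, stood at 33.8 to 45.9 CPM in GR18 and 30.8 to 35.6 in GR19, and Mknk1, a kinase of the translation factor eIF4E, at 33.8 and 31.6. In all other cells Mknk1 stood at 13.4 CPM in the control against 22.4 and 23.6, short of 2-fold. In bulk it was not called at 0.24 (SE 0.223, edgeR adjusted p = 0.64). The interferon-inducible genes named here and Prtn3 were past 2-fold in all other cells too. Gbp2 and Oas2 belong to families of similar sequence, so their reads may be shared with relatives.

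The highest-ranked differences downward rested in part on single control cells. Col2a1, a cartilage collagen, and Postn, periostin, each stood at 76.6 CPM in the control, and all 20 UMIs of each came from 1 of the 15 cells. Mmp3 took 15 of 19 UMIs, Tnc, tenascin C, 18 of 23, Lbh 15 of 29 and the basal keratin Krt17 13 of 28 from 1 cell. Ttyh3, a chloride channel family member, was more evenly spread, at 111 CPM in the control (10 of 15 cells) against 16.9 and 7.11. So was Tuba1a, at 138 (10 of 15 cells) against 10.9 and 9.48, although its reads may be shared with other alpha tubulins. Krt17, Lbh, Tuba1a and Ttyh3 were past 2-fold lower in both SOX4KO libraries in all other cells too. There Krt17 held 1146 control UMIs and Lbh 313, with log2 differences of -4.72 and -5.84 for Krt17 and -2.51 and -2.26 for Lbh. Those of Tuba1a were -2.56 and -2.99 and those of Ttyh3 -2.72 and -2.21. Col2a1, Postn, Mmp3 and Tnc were not past 2-fold in both libraries there. Krt17, Lbh, Tuba1a, Postn and Tnc were not called in bulk. Col2a1 was lower there, at 50.9 ± 22.8 CPM (SD, n = 3) in SOX4KO lines against 517 ± 390 (SD, n = 2). Its log2 difference was -3.34 (SE 0.507, edgeR adjusted p = 0.018). In bulk Ttyh3 was lower in SOX4KO lines, at 23 ± 3.69 CPM (SD, n = 3) against 67.9 ± 5.69 (SD, n = 2), a log2 difference of -1.55 (SE 0.198, edgeR adjusted p = 0.012).

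Hypoxia and glycolysis was the list with the most genes past 2-fold in resting luminal cells, at 10 of 20 higher and 0 lower. Its median log2 difference was 1.36 in GR18 and 1.01 in GR19, beside -0.05 over all genes in each, and 1.02 and 0.64 in all other cells. The genes named from this list and the next were chosen after their values were seen. Bnip3, a mitophagy receptor, stood at 46.0 CPM in the control (95% interval 23.8 to 80.3), 279 in GR18 and 249 in GR19, or 6.06-fold and 5.41-fold, and 36 of 41 and 46 of 57 SOX4KO cells carried it against 5 of 15 control cells. Car9, carbonic anhydrase 9, stood at 19.2 CPM (6.22 to 44.7), 226 and 128, and Car12 at 95.8 (62.0 to 141), 344 and 239. Vegfa was at 3.83 CPM from 1 UMI in the control, with an interval of 0.097 to 21.4, and at 67.6 and 60.9. The control intervals of these genes did not reach the SOX4KO intervals. In bulk 5 of 24 genes of this list were higher at an adjusted p under 0.1 and none was lower (median 0.40), among them Bnip3 at 1.02 (SE 0.195, edgeR adjusted p = 0.036) and Car12 at 1.17 (SE 0.25, edgeR adjusted p = 0.049).

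Interferon and antigen presentation genes were higher in 7 of 15 and lower in none, with medians of 0.97 and 1.08 in GR18 and GR19 and 1.27 and 1.03 in all other cells. Irf7, the interferon amplification factor, stood at 11.5 CPM from 3 UMIs in the control (2.37 to 33.6), 141 and 156, and Ifit1 at 3.83 CPM from 1 UMI (0.097 to 21.4), 106 and 105. Isg15, an interferon-induced ubiquitin-like protein, stood at 49.8, 180 and 130, and its 13 control UMIs came from 1 cell. The bulk lines did not show the same direction. There 0 of 24 genes of the list were higher and 3 were lower (median -0.72), Irf7 was not called at -1.05 (SE 0.565) and Ifit1 was not called at -1.04 (SE 0.635).

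P53 targets were lower in 4 of 11 and higher in none, with medians of -0.99 and -0.95, beside -0.25 and -0.55 in all other cells. Bax, a pro-apoptotic BCL2 family member, stood at 165 CPM in the control (119 to 222), 72.4 in GR18 and 78.2 in GR19, and was found in 14 of 15 control cells. Phlda3, an AKT inhibitor, stood at 130 (90.2 to 182), 48.3 and 40.3. Cdkn1a fell short of 2-fold in GR18, at 563 (476 to 662), 284 and 236. In bulk 2 of 17 p53 targets were higher and 0 lower, one of them Phlda3 at 1.29 (SE 0.264, edgeR adjusted p = 0.043), against its direction in resting luminal cells.

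**Figure D5:**
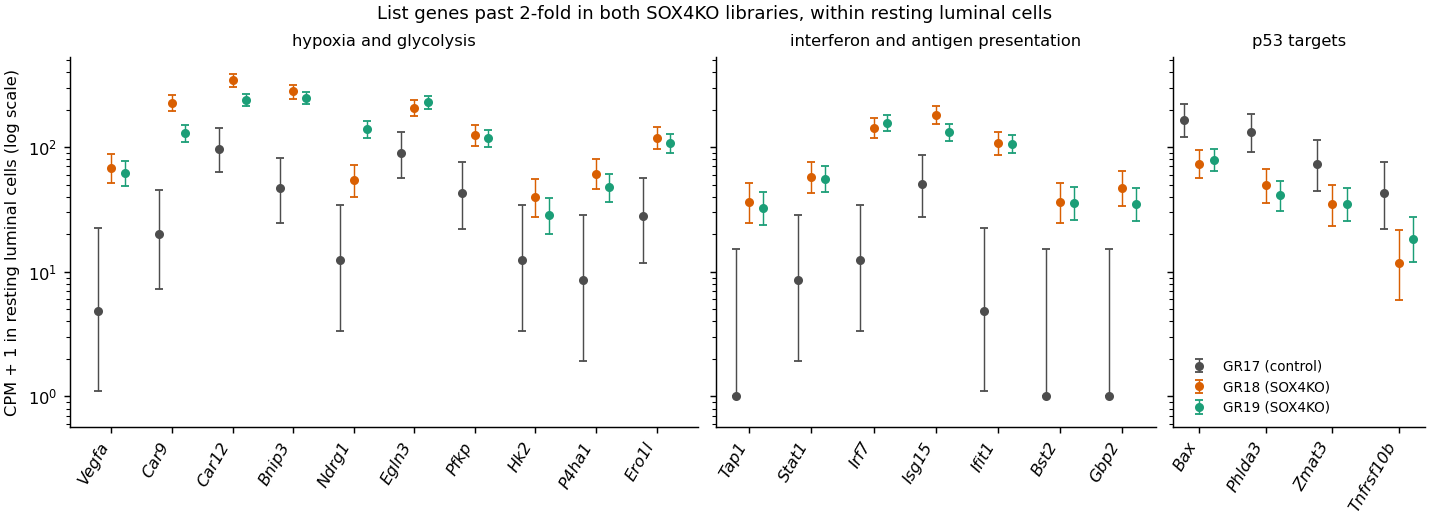
Level (CPM + 1, log scale) in resting luminal cells of GR17 (control, gray), GR18 and GR19 (SOX4KO, orange and green) for list genes past 2-fold in both SOX4KO libraries, with exact Poisson 95% intervals as bars. Control points of the 10 hypoxia and 7 interferon genes lie below both SOX4KO points, 3 of them at 0 UMIs, and those of 4 p53 targets lie above.

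The remaining lists held few such genes. Of 15 milk genes 2 were higher, Csn1s1 at 107, 2027 and 1114 CPM (18.9-fold and 10.4-fold) and Plin2 at 69.0, 150 and 145. Csn1s1 was found in 6 of 15 control cells, 40 of 41 GR18 cells and 50 of 57 GR19 cells. Csn3 passed 2-fold only in GR19, with 713, 1208 and 4213 CPM. Of 16 luminal epithelial genes 2 were lower, Krt19 at 172, 79.7 and 74.3 CPM and Prom1, although in all other cells Krt19 was 0.66 and 1.12 higher on the log2 scale in GR18 and GR19. Of 29 lineage transcription factors Tfap2b was higher and 4 were lower, with Foxa1 at 383, 147 and 121 CPM, Stat5a, the prolactin signal transducer, at 38.3, 9.66 and 13.4, Id3 at 95.8, 3.62 and 15.8 and Id1 at 57.5, 21.7 and 24.5. Foxa1 was present in all 15 control cells, while 15 of the 25 Id3 UMIs of the control came from 1 cell. Cldn8 and Tjp1 of the tight junction list were higher, 0 of 20 immediate early and 0 of 11 heat shock genes passed, and 0 of 9 S phase and 2 of 23 G2 and M phase genes were lower.

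The bulk lines gave a replicated view of genotype over whole organoids, in which fewer cells of a type and less RNA per cell cannot be told apart. Each bulk library was a line of its own, so p-values measure the spread between these lines. Of 11682 genes tested with edgeR, 479 were higher (4.1%) and 254 lower (2.17%) in SOX4KO at an adjusted p under 0.1, and the total of 733 fell to 130 without line WT1 and to 56 without WT3. Of the 1169 genes higher in resting luminal cells 1086 were tested in bulk, and 45 were higher (4.14%) and 47 lower (4.33%). Of the 1401 genes lower in resting luminal cells 1300 were tested, and 135 were higher (10.4%) and 44 lower (3.38%). Among the latter genes calls upward came to more than the 4.1% of all genes. In both sets calls downward came to more than the 2.17% of all genes.

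Single resting luminal genes went both ways in bulk. Creb3l1 stood at 90.1 and 113 CPM in WT1 and WT3 and at 41.2, 36.4 and 57.2 in H7, M4 and H4 (-1.17, SE 0.226, edgeR adjusted p = 0.038), and Atp1b1 at 144 and 117 against 76.4, 45.7 and 49.8 (-1.18, SE 0.242, edgeR adjusted p = 0.043). Cited1 stood at 32.6 and 41.8 against 11.7, 20.9 and 9.34 (-1.44, SE 0.325, edgeR adjusted p = 0.056). SOX4KO lines lay below both controls for all 3 genes. With so few lines this adds little, since it also held for genes not called, such as Krt19 (-0.98, SE 0.482, edgeR adjusted p = 0.34). Xbp1 fell by 1.45 (SE 0.171, edgeR adjusted p = 0.011) and Ehf, an epithelial ETS factor, by 1.33 (SE 0.189, edgeR adjusted p = 0.015). Csn1s1 rose by 4.62, from 1.81 and 0.996 CPM to 44.9, 22.7 and 34.7 (SE 0.447, edgeR adjusted p = 0.0066), and Trf by 1.26, Wfdc2 by 1.30 and Spp1 by 4.28. In resting luminal cells Wfdc2 went the other way, at 1767 CPM in the control, 1032 in GR18 and 536 in GR19, and in all other cells its log2 differences were -0.59 and -1.39. Csn3 was uneven between lines, at 337 and 271 CPM against 741, 165 and 2287 (1.81, SE 0.857, edgeR adjusted p = 0.32), and its groups overlapped.

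Among the highest-ranked falls of resting luminal cells, 3 genes of secreted or matrix proteins rose in bulk. Serpinf1 stood at 10.9 and 9.36 CPM in control lines and 599, 464 and 340 in SOX4KO lines (5.53, SE 0.333, edgeR adjusted p = 0.0012), Pi15 at 204 and 106 against 1131, 464 and 854 (2.4, SE 0.430, edgeR adjusted p = 0.031) and Col8a1 at 65.0 and 28.9 against 419, 212 and 337 (2.79, SE 0.415, edgeR adjusted p = 0.017). The SOX4KO lines lay above both controls for each, as they also did for genes not called, such as Pdcd4 (0.25, SE 0.165, edgeR adjusted p = 0.49). By list, 8 of 21 basal genes and 5 of 19 mesenchymal genes were higher in bulk, with 0 and 1 lower, and 4 of 19 milk genes were higher and 2 lower. Luminal epithelial genes were lower in 3 of 18 and luminal progenitor genes in 2 of 10, and neither list had a gene called higher. S phase genes were lower in 7 of 37 and G2 and M phase genes in 11 of 49, again with none higher. Krt8, Krt18, Wfdc18 and Ceacam1 were not called, with Ceacam1 at -0.74 (SE 0.316, edgeR adjusted p = 0.27) and Wfdc18 at 0.27 (SE 0.732).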

How the data were processed

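Single-cell UMI counts per gene and well (3 plates of 384 wells, poly-A primed, 3 single-cell libraries) and bulk read counts per gene (5 lines) were used as the authors deposited them, without normalization; the submitters' processing notes name STAR 2.4.2a, HTSeq, Seurat, NCBIM37 and mm9, with no role given. A gene without a row in a library was taken as 0, ERCC spikes were left out, FGF2 was at 12.5 ng/ml for all groups, the highest C of a resting luminal cell was 12.5, and wells under 1000 UMIs (15, 15 and 22) were removed. Bulk reads on no gene (71.64% to 83.85%) stayed out of library sizes. UMIs were summed per library and class and tested with edgeR 4.0.16 (filterByExpr, TMM, quasi-likelihood, library as block, residual df of 2, since the classes of a library come from the same organoids), with Benjamini-Hochberg adjustment over all genes tested. Bulk lines were compared by the same test without a block and with a threshold of 0.1. The 16 genes of the rule were fitted but not counted as called. Between genotypes in single cells, with 1 control library, genes were described by fold, and an edgeR test with 1 residual df was added after seeing the data. Fold differences there used CPM + 1 and genes with a mean of 20 CPM or more. No doublet caller was run, and wells over 2 times the median UMIs (8, 20 and 11, of which 0, 0 and 2 were resting luminal) were left out as an alternative. Across libraries, 10 resting luminal wells shared a well number with another resting luminal well.

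The cells, the 26 gene lists and the tests were chosen with earlier results of these data known. Genes were named by rule: the markers and rule genes, the 10 highest-ranked rises and falls against all other cells and 5 each in the other cell comparisons (called, same direction in 3 libraries, 50 CPM or more), the 8 highest-ranked genes each way between genotypes and, per list, up to 4 genes of lowest p with called luminal, milk, basal and CDK inhibitor genes. Genes of hypoxia, interferon, p53 and transcription factor lists and some list members (Kit, Fos, Atf3, Vegfa, Ndrg1, Cdkn1b, Sox4) were named after their values were seen. Scripts were tested on simulated data. Alternatives were DESeq2 1.42.0, other size factors, filters, thinning to 5000 UMIs, other boundaries, libraries left out and counts without mitochondrial genes and the row Rn45s. Promoters came from RefSeq tables of GRCm38.p6, another build than that of the notes, and were matched by symbol.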

Additional observations from a re-analysis of the deposited data

How the results depend on the processing

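Among the 135 values of named genes, 2045 of 2157 alternatives kept direction and side of the threshold, 112 lost the call and 0 reversed, and 87 values were called under every alternative. The losses came mostly from the fit without the library block (46), the fit without GR19 (14) and DESeq2 (13). Counts of called genes moved more. Against all other cells, luminal cells that were not resting and resting cells that were not luminal, the library-blocked 2570, 2034 and 1132 became 1296, 670 and 455 with DESeq2. Without the replicate block, which pairs the classes of a library, they became 913, 636 and 325. Leaving out a library gave 1527 to 2623, 812 to 1861 and 556 to 1371, with the lowest counts without GR19. Counts without mitochondrial genes and Rn45s gave 2545, 2010 and 1253 calls. Boundaries within each library gave 1214 in place of 2034 and shares of 12.47% and 9.39% in GR17 and GR19. The wider luminal boundary (highest 33.3% of R) gave 7.05% and 14.9% in GR17 and GR18, and the stricter resting boundary (lowest 25% of C) gave 7.86% in GR18. In bulk the 733 calls became 1686 without a filter on low counts and 56 to 1006 when a line was left out, lowest without WT3, after which the lone control line was taken to vary like the SOX4KO lines. Between genotypes in resting luminal cells the 474 genes past 2-fold became 258 with 10 CPM added in place of 1, 132 at a mean of 50 CPM or more and 800 to 831 when a SOX4KO library was left out, since agreement of 2 libraries was then not asked. Without mitochondrial genes and Rn45s, 587 of 6682 genes passed, in place of 474 of 6015. Setting sums of 0 to 3 counts, an alternative chosen after seeing the data, gave 473, and an edgeR test of the 3 sums, added likewise, called 100 genes (193 at an adjusted p under 0.1) and DESeq2 10. The causes of the other changes were not tested. Depth also limits the genotype comparison, since the control sum held 260946 UMIs from 15 cells and genes under 11.5 CPM there rest on fewer than 3 counts.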
